A study of Mus musculus with 17 samples.

Results

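The genes described here make prostaglandins D2 and E2 or carry their receptors, and they were followed in the hippocampus of mice kept awake. All probe sets whose platform annotation gives exactly 1 symbol among 10 listed genes were taken, and every such probe set was kept. This gave 14 probe sets of 8 genes (Ptgds, Hpgds, Ptgs2, Ptges, Ptges2, Ptger3, Ptger4 and Ptgdr) among 45037 probe sets tested. Ptgs1 had no probe set with a symbol in the annotation, and both probe sets that list Ptges3 carry several symbols, so these genes were not analysed here.

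Hippocampal RNA came from 8 sleep-deprived and 9 undisturbed mice, 1 animal per Affymetrix expression array. The sleep-deprived animals were kept awake for 5 h in the home cage by gentle handling that began around lights on. The undisturbed animals stayed in their home cages. All were male C57BL/6J mice (genotype label C57/BL6) without a transgene, individually housed on a light/dark cycle, handled daily for 6 days beforehand, and 2 months old by the sample labels or 2 to 4 months by the growth protocol. No group was handled and then allowed to sleep, so the effect of lost sleep and that of being handled cannot be told apart.

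Prostaglandins are made from arachidonic acid, which phospholipases release from membranes and cyclooxygenases turn into prostaglandin H2. Terminal synthases then convert prostaglandin H2 into prostaglandin D2, prostaglandin E2 and other prostanoids, which act on G-protein-coupled receptors. Prostaglandin D2 is known as a sleep-promoting substance that acts through its DP1 receptor near the basal forebrain, and prostaglandin E2 has been linked to wakefulness. In the rodent hippocampus the inducible cyclooxygenase is known to be made by excitatory neurons.

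The values are log2 signals, so a difference of 1 is a 2-fold change. Differences are given as sleep-deprived minus undisturbed, with the moderated standard error (SE). A probe set counts as changed at an adjusted p under 0.05 in limma, with Benjamini-Hochberg adjustment over all probe sets. Across all probe sets 1.81% passed, 0.584% higher and 1.23% lower in sleep-deprived animals. By exact permutation 2.08% passed. In limma 263 of 816 called probe sets were higher, and after quantile normalization 429 of 955 were. Array medians lay between 6.13 and 6.22. All 7 hippocampal neuron genes were measured, with a mean signal per gene list of about 10.7 in sleep-deprived and 10.8 in undisturbed animals. Choroid plexus marker genes were high on 5 arrays, sleep-deprived replicates 3, 5 and 7 and undisturbed replicates 4 and 9. Of 12 probe sets of activity-regulated genes 6 were higher in sleep-deprived animals, among them Fos, which encodes a transcription factor induced by neuronal activity, with a difference of 0.74 ± 0.13 (SE, adjusted p = 0.0046).

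Of the 14 probe sets, 1 fell, 0 rose and 13 did not pass the test. The share that fell was 7.14%, beside 1.23% of all probe sets, and rests on that single probe set. Without adjustment 6 of the 14 had a p under 0.05, and 15.3% of all probe sets did. In 0 of the 14 were the groups free of overlap, beside 0.486% of all probe sets. The median difference was −0.050 over the 14 and 0.011 over all probe sets, and the median size of the difference was 0.105 over the 14 and 0.058 over all.

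**Figure D1:**
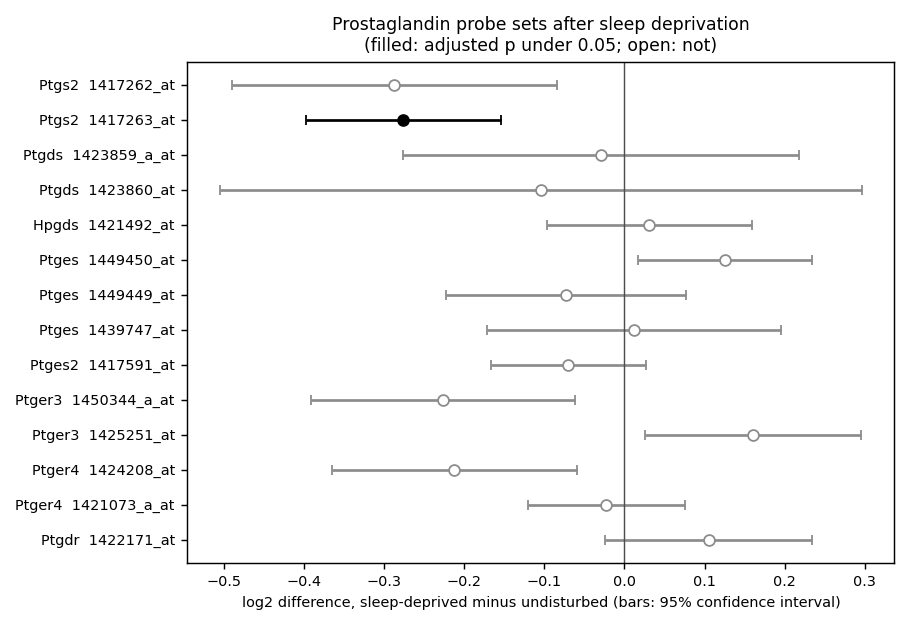
Difference in log2 signal between sleep-deprived and undisturbed animals for each of the 14 probe sets, with 95% confidence intervals from limma (8 and 9 arrays). The second Ptgs2 probe set, at −0.28, is the only one of the 14 that passed the threshold.

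Ptgs2 encodes cyclooxygenase-2, the inducible enzyme that makes prostaglandin H2. The mRNA was lower after sleep deprivation on probe set 1417263_at. Its signal in the 8 sleep-deprived animals ran from 7.54 to 7.93 with a median of 7.80, against 7.88 to 8.19 with a median of 8.09 in the 9 undisturbed animals. All 8 sleep-deprived arrays lay below the undisturbed mean, and 7 lay below the lowest undisturbed array, with replicate 7 as the exception. The means were 7.78 ± 0.13 in sleep-deprived and 8.05 ± 0.11 in undisturbed animals (SD, n = 8 and 9). The difference was −0.28 ± 0.059 (SE; 95% confidence interval −0.40 to −0.15), which is 1.21-fold lower, with an adjusted p of 0.0152 in limma. Exact two-sided permutation gave an adjusted p of 0.0282. In bulk tissue, fewer cells of a type and less RNA per cell cannot be told apart.

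The other Ptgs2 probe set, 1417262_at, had a difference of the same size and did not pass. Its signal ran from 7.64 to 8.34 (median 7.90) in sleep-deprived animals, against 7.86 to 8.47 (median 8.28) in undisturbed animals. The groups overlapped, although 7 of 8 sleep-deprived arrays lay below the undisturbed mean. The difference was −0.29 ± 0.098 (SE), with an adjusted p of 0.142 in limma and an exact two-sided permutation p of 0.0226, or 0.226 adjusted over all probe sets. The test of one probe set against the other gave a difference of 0.011 (adjusted p = 0.970 in limma). The deviations of both from their group means were correlated over the 17 arrays (r = 0.66, rho = 0.69, permutation p = 0.0040, adjusted p = 0.012 over 6 such pairs). The mean of both probe sets differed by −0.28 ± 0.070 (SE), with an adjusted p of 0.0294 in limma over all genes, a summary chosen after the data were seen.

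The call for 1417263_at held when any single array was left out, with adjusted p-values of 0.0118 to 0.0368 in limma. Without the 5 arrays high in choroid plexus markers the difference was −0.30 and the adjusted p 0.115, over the 12 arrays left.

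**Figure D2:**
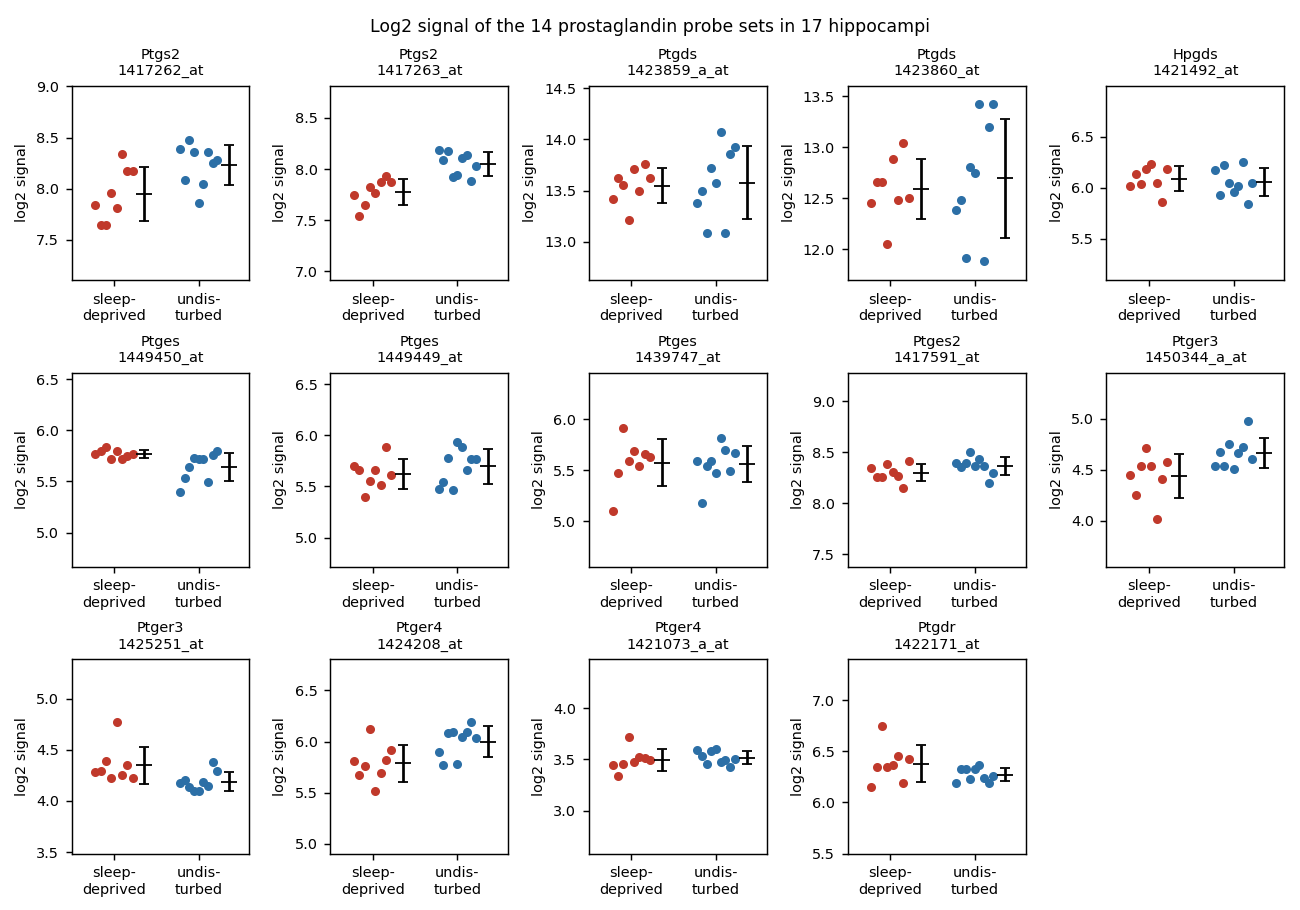
Log2 signal of each of the 14 probe sets on every array, with sleep-deprived animals on the left and undisturbed animals on the right, and bars for the mean and SD. On the Ptgs2 probe set 1417263_at, 7 of 8 sleep-deprived arrays lie below all 9 undisturbed arrays, and the Ptgds panels show the widest spread between animals within the undisturbed group.

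Ptgs2 is itself known as an activity-regulated gene of neurons, so its promoter is shown beside that of Fos, a gene of that kind whose mRNA rose on the same arrays. The sequences are RefSeq's for assembly GRCm38.p6, from 250 bases before to 30 bases after the annotated start, both on the plus strand. Ptgs2 is at chr1:150099781-150100060 and Fos at chr12:85473640-85473919. Capitals mark matches, on either strand, to the cAMP response element core TGACG, the E-box CACGTG or the C/EBP palindrome TTGCGCAA.
Ptgs2: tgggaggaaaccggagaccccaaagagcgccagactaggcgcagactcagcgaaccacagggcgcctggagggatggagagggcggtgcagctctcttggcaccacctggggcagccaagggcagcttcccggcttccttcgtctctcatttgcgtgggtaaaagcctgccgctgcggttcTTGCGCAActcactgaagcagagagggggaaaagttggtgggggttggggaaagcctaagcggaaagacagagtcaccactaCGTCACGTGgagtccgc
Fos: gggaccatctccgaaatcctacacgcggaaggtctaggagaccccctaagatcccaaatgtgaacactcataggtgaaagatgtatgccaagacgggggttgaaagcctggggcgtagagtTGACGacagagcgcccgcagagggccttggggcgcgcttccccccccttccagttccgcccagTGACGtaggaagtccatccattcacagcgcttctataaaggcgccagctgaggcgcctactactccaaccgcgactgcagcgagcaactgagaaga
In Ptgs2 the TGACG core lies on the other strand, beginning 14 bases after the annotated start. It overlaps the E-box, which begins 17 bases after that start. The C/EBP match begins 69 bases before the annotated Ptgs2 start. Fos has matches to TGACG that begin 129 and 66 bases before its annotated start, both on the plus strand. Of 32851 promoters of this length 19.9% hold TGACG, 6.79% the E-box, 0.18% the C/EBP palindrome and 1.94% both TGACG and the E-box. A match describes the letters only. Where transcription begins was not measured, so a match after the annotated start need not lie in transcribed sequence.

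Both genes carry TGACG, and their mRNA differences had opposite signs, 0.74 for Fos and −0.28 for Ptgs2 (1417263_at). Whether this element has a part in either difference was not tested. Across the arrays, after removal of group means, the Ptgs2 probe set 1417262_at and the mean of the activity-regulated genes had r = 0.38 and rho = 0.28 (n = 17, permutation p = 0.131, adjusted p = 0.219 over 5 relations). Within the groups r was 0.42 in sleep-deprived and 0.34 in undisturbed animals, and 0.47 without the 2 farthest arrays. Likeness to 1417262_at was taken as Pearson r of deviations from group means over the 17 arrays, against 18192 genes. The closest were Mapk10 at 0.92, Cpeb2 at 0.87 and Smarca1 at 0.85. The called probe set 1417263_at had an r of 0.66 with 1417262_at, and its own closest genes were not analysed here. Mapk10 encodes a neuronal JNK kinase, Cpeb2 an mRNA-binding regulator of translation and Smarca1 a chromatin remodeller.

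Ptgds encodes lipocalin-type prostaglandin D synthase, the main source of prostaglandin D2 in brain, known from leptomeninges, choroid plexus and oligodendrocytes. No change passed the test. Its first probe set, 1423859_a_at, ran from 13.22 to 13.76 (median 13.59) in sleep-deprived animals, against 13.08 to 14.07 (median 13.57) in undisturbed animals. The undisturbed range enclosed the whole sleep-deprived range. The difference was −0.029 ± 0.12 (SE; 95% confidence interval −0.28 to 0.22, adjusted p = 0.938 in limma). Probe set 1423860_at gave −0.10 ± 0.19 (SE; interval −0.51 to 0.30, adjusted p = 0.846). The intervals give the differences that the data allow, and they are not limits of detection. On 1423860_at the difference was −0.21 to −0.014 without single arrays and −0.23 with a choroid plexus covariate.

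The Ptgds signal differed widely between single animals. On 1423860_at the highest and lowest of the 17 arrays differed by 1.54, a 2.90-fold range, and on 1423859_a_at by 0.99, a 1.99-fold range. The SD on 1423859_a_at was 0.17 in sleep-deprived and 0.35 in undisturbed animals, a contrast that was not tested. Both probe sets followed each other from animal to animal (r = 0.98 over 17 arrays).

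The Ptgds level moved with markers of leptomeninges and fibroblasts. Over the 17 arrays, as deviations from group means, Ptgds (1423859_a_at) and the mean of 12 such genes had r = 0.95 and rho = 0.96 (permutation p = 1e-05, the smallest that 100000 resamples can give, adjusted p = 5e-05 over 5 relations). Within groups r was 0.87 over 8 sleep-deprived and 0.97 over 9 undisturbed arrays, and it was 0.94 without the 2 arrays farthest out, undisturbed replicates 3 and 9. The marker mean ran from 7.00 to 7.65 in sleep-deprived and from 6.81 to 7.93 in undisturbed animals, and 0 of its 21 probe sets differed between the groups. The 3 genes most like Ptgds over all arrays were Fmod (r = 0.97), Aldh1a2 (r = 0.96) and Ogn (r = 0.96). Aldh1a2 and Ogn are themselves among the 12 marker genes, so they are not separate from the relation above. Fmod encodes fibromodulin and Ogn osteoglycin, both matrix proteoglycans, and Aldh1a2 a retinoic acid synthase.

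Choroid plexus and oligodendrocyte markers had a lower r with Ptgds, a contrast that was not tested. The choroid plexus r covers fewer arrays and only part of the marker range, so it is not like for like with the leptomeningeal r. Choroid plexus markers put the arrays in separate clusters, so the relation was computed over the 12 arrays of the lower cluster, with r = 0.52 and rho = 0.54 (permutation p = 0.086, adjusted p = 0.215). Without the 2 farthest arrays r was 0.68, and in the 7 undisturbed arrays of that cluster it was 0.77, while 5 sleep-deprived arrays were too few. The marker mean was 6.10 ± 0.73 in sleep-deprived and 5.83 ± 0.48 in undisturbed animals (SD), and 0 of its 20 probe sets passed the test. The choroid plexus transport protein gene Ttr ranged from 7.12 to 14.3 over the arrays. For 9 oligodendrocyte genes r was −0.14 and rho −0.16 (permutation p = 0.585, adjusted p = 0.731), with −0.10 in sleep-deprived and −0.21 in undisturbed animals and 0.11 without the 2 farthest arrays. Of their 25 probe sets 1 was lower in sleep-deprived animals, that of Opalin (−0.41, adjusted p = 0.0037 in limma). What part dissection, cell number or RNA per cell has in the Ptgds range was not tested.

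**Figure D3:**
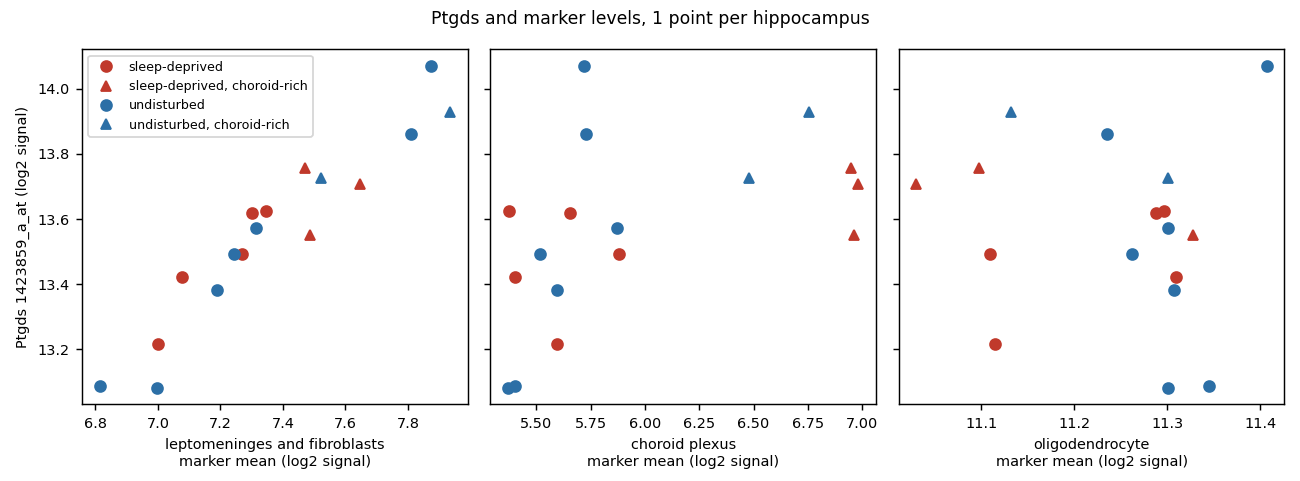
Log2 signal of Ptgds (1423859_a_at) on each array against the mean log2 signal of marker genes of leptomeninges and fibroblasts, choroid plexus and oligodendrocytes. Triangles mark the 5 arrays high in choroid plexus markers, and the points follow a line with the leptomeningeal markers, where r is 0.95 after removal of group means.

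Hpgds encodes the haematopoietic prostaglandin D synthase, which in mouse brain is known from microglia. Probe set 1421492_at ran from 5.86 to 6.23 (median 6.09) in sleep-deprived animals, against 5.85 to 6.25 (median 6.05) in undisturbed animals. The ranges nearly coincide, and the difference was 0.031 ± 0.062 (SE, adjusted p = 0.857 in limma). The mean of 10 microglial genes was 8.80 ± 0.03 in sleep-deprived and 8.80 ± 0.08 in undisturbed animals (SD), and 0 of 16 probe sets passed. Hpgds and this mean had r = 0.073 and rho = 0.16 (permutation p = 0.779, adjusted p = 0.779). The genes most like Hpgds were Krt79 (r = 0.75), Ube2q2 (r = 0.74) and Calhm2 (r = 0.73), further from 1 than the nearest neighbours of Ptgds.

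How far above background a dim probe set lies can only be set against other dim ones, because the files hold no detection call. Of 11 measured genes of other tissues, with mean signals of 3.48 to 7.15, 0 were brighter than the Ptgds, Ptgs2 or Ptges2 probe sets. For Hpgds, Ptgdr and Ptger4 (1424208_at) 3 of the 11 were brighter, for the Ptges probe sets 4 or 5, for Ptger3 7 or 8, and for Ptger4 (1421073_a_at) 10. Probe sets differ in how strongly they bind, so levels are not compared between genes.

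Prostaglandin E2 synthases did not pass the test. Ptges encodes microsomal prostaglandin E synthase-1, the inducible enzyme that is coupled to cyclooxygenase-2. On 1449450_at the signal ran from 5.72 to 5.83 (median 5.77) in sleep-deprived animals, against 5.40 to 5.80 (median 5.72) in undisturbed animals. All 8 sleep-deprived arrays lay above the undisturbed mean, but the ranges overlapped, and the difference was 0.13 ± 0.052 (SE, adjusted p = 0.243 in limma). The other Ptges probe sets gave −0.073 (1449449_at, adjusted p = 0.677) and 0.012 (1439747_at, adjusted p = 0.967), and the sign of the last changed with the scaling. Ptges2, which encodes the membrane-associated synthase-2, had means of 8.30 ± 0.08 in sleep-deprived and 8.37 ± 0.09 in undisturbed animals (SD) and a difference of −0.070 ± 0.047 (SE, adjusted p = 0.503).

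Ptger3 encodes EP3, a prostaglandin E2 receptor that couples mainly to inhibition of cAMP formation and is made in isoforms with different tails. Its probe sets differed in sign. On 1450344_a_at the signal ran from 4.02 to 4.71 (median 4.49) in sleep-deprived animals, against 4.51 to 4.98 (median 4.67) in undisturbed animals, a difference of −0.23 ± 0.079 (SE, adjusted p = 0.158 in limma). On 1425251_at it ran from 4.22 to 4.77 (median 4.29) in sleep-deprived animals, against 4.10 to 4.38 (median 4.18) in undisturbed animals, a difference of 0.16 ± 0.065 (SE, adjusted p = 0.229), or 0.10 without sleep-deprived replicate 5. Neither passed alone, and both pairs of ranges overlapped.

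The probe sets differed from each other in their response by 0.39 ± 0.087 (SE, adjusted p = 0.0288 in limma over 16752 such pairs, of which 1.3% passed). This call was lost without any 1 of 7 arrays (sleep-deprived replicates 2, 5 and 6 and undisturbed replicates 4, 6, 7 and 8), and over all 17 single omissions the difference lay between 0.34 and 0.44, with adjusted p-values of 0.0072 to 0.063. Both probe sets are dim, and which transcript each reads was not analysed here.

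Ptger4 encodes EP4, a receptor that raises cAMP. On 1424208_at the signal ran from 5.51 to 6.12 (median 5.78) in sleep-deprived animals, against 5.77 to 6.19 (median 6.05) in undisturbed animals. The ranges overlapped, with 7 of 8 sleep-deprived arrays below the undisturbed mean. The difference of −0.21 ± 0.074 (SE) had an adjusted p of 0.151 in limma, and 0.0481 without sleep-deprived replicate 4. The dim probe set 1421073_a_at gave −0.023 (adjusted p = 0.865).

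Ptgdr encodes DP1, the prostaglandin D2 receptor linked to sleep. Probe set 1422171_at ran from 6.15 to 6.74 (median 6.36) in sleep-deprived animals, against 6.19 to 6.37 (median 6.25) in undisturbed animals. In all, 3 sleep-deprived arrays lay above every undisturbed array and 1 below, and the difference was 0.11 ± 0.062 (SE, adjusted p = 0.443 in limma). Without sleep-deprived replicate 3 it was 0.053 (adjusted p = 0.705). Without the 5 arrays high in choroid plexus markers the difference was 0.062 for Ptgdr. For Ptger3 it was then 0.068 (1425251_at) and −0.26 (1450344_a_at), and for Ptger4 −0.14 (1424208_at) and −0.0080 (1421073_a_at).

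The other genes of the eicosanoid pathway were grouped by role, and 55 of 58 were measured, with 89 probe sets. Of these 1 rose, 2 fell and 86 did not pass, beside 0.584% and 1.23% of all probe sets, and the median difference was 0.031. The list for release of arachidonic acid (23 of 24 genes measured, 39 probe sets) gave 0 higher and 2 lower, with a median of 0.028. That list is wider than the enzymes that free arachidonic acid themselves. The 2 lower probe sets are those of Daglb and Pla2g4e, described below. The lipoxygenase and leukotriene arm (15 of 16 genes, 19 probe sets) gave 1 higher and 0 lower, with a median of 0.037. Other terminal synthases (5 probe sets), breakdown and transport (15) and other prostanoid receptors (11) gave 0 in either direction.

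Daglb encodes a diacylglycerol lipase whose product, 2-arachidonoylglycerol, is a source of arachidonic acid. Probe set 1451970_at ran from 6.81 to 7.27 (median 7.01) in sleep-deprived animals, against 7.15 to 7.53 (median 7.33) in undisturbed animals. In the sleep-deprived group 7 of 8 arrays lay below every undisturbed array, and the difference was −0.33 ± 0.064 (SE, 1.26-fold lower, adjusted p = 0.0073 in limma). Pla2g4e encodes a cytosolic phospholipase A2 relative that acts as an N-acyltransferase, and it fell by 0.24 ± 0.058 (SE) on 1429862_at, with an adjusted p of 0.0309 in limma. That call was lost by exact two-sided permutation (adjusted p = 0.0531) and without any 1 of 9 arrays, with an adjusted p of up to 0.0648 in limma.

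Alox12b encodes a 12R-lipoxygenase known from the skin barrier. Probe set 1418266_at ran from 6.43 to 7.05 (median 6.59) in sleep-deprived animals, against 5.97 to 6.45 (median 6.22) in undisturbed animals. In the sleep-deprived group 7 of 8 arrays lay above every undisturbed array, and the difference was 0.39 ± 0.084 (SE, adjusted p = 0.017 in limma). Ptgr1, a reductase that inactivates prostaglandins and leukotriene B4, lay just outside the threshold at 0.21 ± 0.054 (SE, adjusted p = 0.0511 in limma). All 8 sleep-deprived arrays lay above its undisturbed mean. Under 6 of 12 alternative settings Ptgr1 passed, with adjusted p-values of 0.0242 to 0.176 in limma over the settings. Pla2g5, a secreted phospholipase, had 0.20 ± 0.056 (SE, adjusted p = 0.0725 in limma) and passed under 2 of 11 alternative settings. Next came Pla2g3 at 0.21 (adjusted p = 0.124 in limma) and Ptgr2 (1433503_at) at −0.14 (0.146). Ptgfr (1446331_at) had 0.15 (0.201) and Lta4h (1434790_a_at) −0.14 (0.240). Of the 11 genes of other tissues, 10 were brighter than this Ptgfr probe set, 9 than Pla2g5, 5 than Pla2g3 and 3 than Alox12b or Pla2g4e. For the Daglb, Ptgr1, Ptgr2 and Lta4h probe sets named here 0 were brighter. Without the 5 arrays high in choroid plexus markers none of the 3 calls was left over the remaining 12 arrays. The differences then were −0.26 for Daglb (adjusted p = 0.158 in limma), −0.29 for Pla2g4e (adjusted p = 0.0578) and 0.42 for Alox12b (adjusted p = 0.129).

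**Figure D4:**
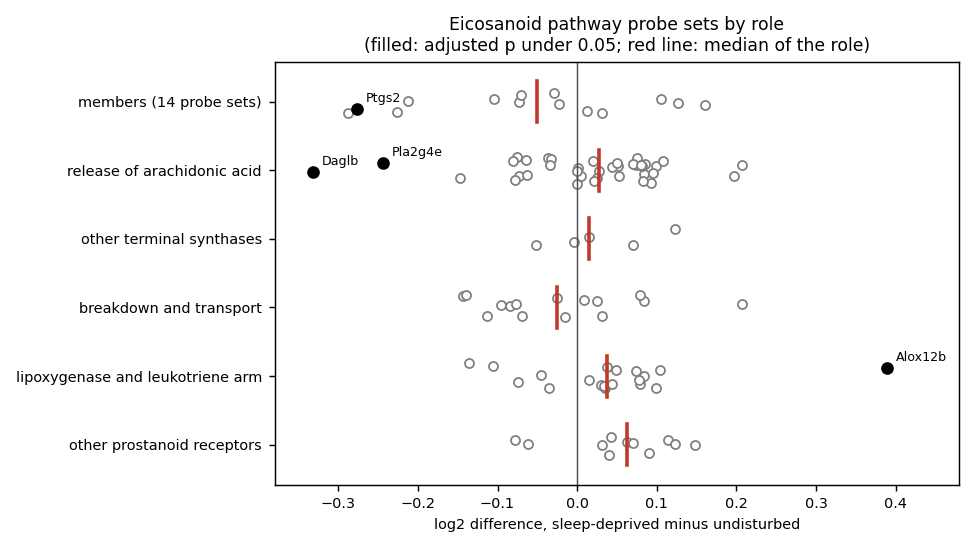
Difference in log2 signal (sleep-deprived minus undisturbed) of every probe set of the pathway, grouped by role, with filled points for those past the threshold. Filled points are Ptgs2 among the described genes and Daglb, Pla2g4e and Alox12b among the others.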

How the data were processed

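Hippocampal RNA of 8 sleep-deprived and 9 undisturbed mice was measured on 17 arrays, grouped by the sample labels. The authors deposited 1 log2 value for each probe set and array. RMA and the affy package made them, per the submitters' processing notes, which name no version. That the base is 2 was judged from the values, 2.90 to 14.8. RMA gives all arrays like distributions, which hides shifts common to most transcripts. The number of arrays limits precision, and replicates are separate animals.

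After removal of 64 control probe sets, 45037 were fitted in limma 3.58.1 (R 4.3.3, lmFit and eBayes, group mean model) and adjusted by the Benjamini-Hochberg method. Of these 34945 carried 1 symbol, 932 several and 9160 none. Exact permutation tests used all 24310 assignments and were two-sided. Relations across arrays used deviations from group means and 100000 permutations. On simulated data, 44 of 100 probe sets changed by 0.25 and 99 of 100 changed by 0.5 were recovered, beside 9 false calls, with 45037 tested. The simulated noise was normal and independent between probe sets, without differences in choroid plexus content, so recovery in the real data may differ. Alternatives were a signal filter, scaling, weights, covariates, a replicate block, gene-level summaries and leaving out arrays. Named genes outside the member list are those called and the next 6 by adjusted p, and for likeness the 3 genes with the highest r. Members and lists were chosen with earlier results of these data known. Figures were drawn with matplotlib 3.10.9.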

Additional observations from a re-analysis of the deposited data

Results flagged for a closer look

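In 34 groups of values of single probe sets, the highest or lowest array was set against its nearest neighbour, and 2 groups had an array far from the rest. Chance gives about 1 in 20 such groups. Ptger3 1425251_at had 4.77 in sleep-deprived replicate 5, and the nearest sleep-deprived array had 4.39, so that the gap made up 0.689 of the group's range. Without that array the difference was 0.10 (adjusted p = 0.362 in limma). The same array had the highest 3′ minus 5′ signal of control genes, 0.417, with 0.302 on the next, undisturbed replicate 4. With that signal as a covariate the Ptger3 difference on 1425251_at was 0.15 (adjusted p = 0.224 in limma). Ptger3 1450344_a_at had 4.98 in undisturbed replicate 8, and the nearest undisturbed array had 4.75, a gap of 0.494 of the range.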

How the results depend on the processing

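The single member call, Ptgs2 1417263_at, held under the filter, other scalings, array weights and covariates. The count was 0 with 1 probe set per gene, 0 at an adjusted p of 0.01 and 1 to 2 without single arrays. With 1 probe set per gene only the brightest was kept, 1417262_at for Ptgs2 (adjusted p = 0.0984 in limma). The called 1417263_at was therefore not retested there. The count was also 0 without the 5 arrays high in choroid plexus markers, where 122 of all probe sets passed. Fewer arrays entered that last fit, and the cause was not tested. Some small values changed sign. Ptges 1439747_at was −0.013 after quantile normalization, −0.023 after cyclic loess, −0.0081 with array weights, −0.034 with a choroid plexus covariate, −0.076 without the 5 arrays and −0.036 to 0.080 without single arrays. Ptgds 1423859_a_at was 0.012 after cyclic loess, 0.026 with array weights and −0.092 to 0.032 without single arrays, and Hpgds was −0.0023 with array weights. The Ptgs2 probe sets differed by −0.022 to 0.053 without single arrays. Other pathway calls numbered 5 under the replicate block, 5 with 1 probe set per gene, 1 at 0.01, 0 without the 5 arrays and 2 to 4 without single arrays. Calls between probe sets of a gene numbered 0 to 1 without single arrays. The Ptgds and oligodendrocyte r was 0.012 after quantile normalization, 0.25 without the 5 arrays and −0.36 to 0.0068 without single arrays, and the Hpgds and microglia r was −0.024 after quantile normalization and −0.081 to 0.25 without single arrays. All probe sets called numbered 816, against 1379 of 22519 with the filter, 1468 under the block and 246 at 0.01.

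The labels name no pairing by replicate number, and the values do not settle whether same-numbered samples share a batch. Of 8 same-numbered pairs 4 had correlated deviations over 0.1 (−0.068 to 0.39), and 2 of 17 arrays correlated best with their own number. The replicate block had a consensus correlation of 0.12 over all probe sets. With the replicate block Ptgs2 1417263_at had an adjusted p of 0.0082 in limma.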
